A study of Mus musculus with 9 samples.

Results

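Guidance genes are the genes of 4 ligand families, the semaphorins, ephrins, Slits and netrins, and of their receptors, the plexins, neuropilins, Eph receptors, Robo receptors and Unc5 receptors. They were taken as every gene of the count table whose symbol starts with Sema, Plxna to Plxnd, Epha or Ephb, Efna or Efnb, Robo, Ntn or Unc5a to Unc5d and a number or letter of that family, together with Nrp1, Nrp2 and the Slit genes. The rule found 69 of 19348 genes, of which 35 were ligands and 33 receptors. The last one, Unc5cl, encodes an intracellular relative of the Unc5 receptors and was placed in neither role. The rule itself uses gene symbols and no measured value, but it was set with earlier results of these data known. The cells came from lungs of C57BL/6J mice of the genotype Col1_GFP;Foxf1_tdTomato, in which GFP reports type I collagen and tdTomato reports the forkhead transcription factor Foxf1. DBL cells were sorted for both reporters (replicates 1, 3 and 4), TDonly cells for the Foxf1 reporter without the collagen reporter (replicates 1, 2 and 3) and ColGFP cells for the collagen reporter without the Foxf1 reporter (replicates 1, 2 and 3). Mice behind all 3 populations carried both reporters. Not given in the sources used here are the promoters or alleles that drive them, the age of the mice, the sort gates and whether a library pools several mice. The labels do not say that replicates were separate animals. The p-values therefore rest on the spread of these libraries alone, which may be technical.

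Semaphorins are secreted or membrane-bound proteins read mainly by plexins, and most of the secreted class 3 members also need a neuropilin as co-receptor. Ephrins sit in the membrane and bind Eph receptor tyrosine kinases on a neighbouring cell, and both the ephrin and the Eph side can signal. Slits are large secreted proteins that bind Robo receptors, and netrins are secreted relatives of laminin that are read by Unc5 receptors, Dcc and neogenin. These families were first known from axon guidance and also act on blood vessels and on branching organs such as the lung. Ephrin-B2 is a marker of arterial endothelium and its receptor EphB4 of venous endothelium, and Robo4 is a receptor of endothelial cells.

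Each population had 3 libraries, with 17820969 to 26147475 counts each over the 9 libraries, and 15550 genes had enough counts to be tested. The Foxf1 gene, which the table lists as Foxf1a, had 87.3 to 113 CPM (read counts scaled to library size) in DBL, 229 to 279 CPM in TDonly and 54.5 to 62.5 CPM in ColGFP. Col1a1 had 9539 to 13224 CPM in DBL, 373 to 1566 CPM in TDonly and 4939 to 9593 CPM in ColGFP. Both sort genes followed the labels in direction, and neither was absent from the population sorted without its reporter. All 10 markers of endothelium were detected and summed to 4040 to 5070 CPM in DBL, 11963 to 12880 CPM in TDonly and 721 to 1096 CPM in ColGFP. The 8 fibroblast markers summed to 36193 to 43534 CPM in DBL, 1572 to 5602 CPM in TDonly and 20939 to 36430 CPM in ColGFP. They include the sort gene Col1a1. In DBL against ColGFP 0 of the 8 passed an adjusted p of 0.05 in edgeR, beside 14.5% of all tested genes. Their log2 fold changes there ran from -0.90 to 1.19. The 9 epithelial markers summed to 7199 to 7959 CPM in DBL, 11308 to 14735 CPM in TDonly and 3987 to 11944 CPM in ColGFP, and the 8 leukocyte markers to 1277 to 1448 CPM in DBL, 1961 to 2759 CPM in TDonly and 881 to 2351 CPM in ColGFP. The replicate 1 library of each population has a sequencing core number from a lower series than the other 6 libraries, which no label calls a batch. TDonly replicate 1 has a fibroblast marker sum of 1572 CPM, against 5276 and 5602 CPM in the other TDonly libraries. ColGFP replicate 1 stands apart from the other ColGFP libraries, with 20939 CPM of fibroblast markers against 36430 and 35673 CPM, 11944 CPM of epithelial markers against 5914 and 3987 CPM, and 2351 CPM of leukocyte markers against 1158 and 881 CPM. In bulk RNA, fewer cells of a type and less RNA per cell cannot be told apart, and what the endothelial, fibroblast and other marker differences add to the results was not tested.

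In every comparison of the populations the share of guidance genes that changed was above that of all tested genes, and the changes ran in both directions. Whether these shares differ was not tested. Of the 69 genes, 65 passed the filter on low counts, and Epha10, Epha6, Epha8 and Unc5cl did not. In TDonly against ColGFP cells, 21 of the 65 were higher and 23 lower in edgeR's quasi-likelihood test, the one used throughout, with p-values adjusted by Benjamini-Hochberg over all 15550 genes and a threshold of 0.05. This is 67.7% of the tested guidance genes, against 45.5% of all tested genes (21.6% higher and 24% lower). Scaling to library totals in place of TMM factors shifts the median log2 fold change of all genes in this comparison to 0.16, against 0.02 with TMM, and turns the all-gene split of 3355 higher and 3727 lower into 4363 higher and 2998 lower, while the guidance genes then split into 24 higher and 22 lower. In DBL against TDonly cells, 20 were higher and 19 lower, or 60% against a background of 29.9% (17.3% higher and 12.6% lower). In DBL against ColGFP cells, 18 were higher and 9 lower, or 41.5% against a background of 14.5% (8.04% higher and 6.47% lower). The all-gene counts depend on single libraries. In DBL against ColGFP, 2256 genes changed, and leaving out ColGFP replicate 2 gave 1478 and leaving out its replicate 3 gave 1468. The 1006 lower genes were 617 and 623 without these libraries and 669, 660 and 581 without DBL replicate 1, 3 and 4. In DBL against TDonly the 1965 lower genes were 1155 without DBL replicate 4. With 1 library left out, the called share in DBL against ColGFP was 32.3 to 49.2% of the guidance genes and 9.31 to 17.5% of all genes. The median log2 fold change over the 65 genes was 0.10 in TDonly against ColGFP, -0.10 in DBL against TDonly and 0.03 in DBL against ColGFP, beside 0.02, -0.04 and -0.00 over all tested genes. The 3 comparisons share libraries with each other. In all, 48 of the 65 changed in at least 1 comparison, 21 in all 3 and 17 in none.

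Ligands and receptors were each divided between the populations. Among the 35 ligands, 11 were higher and 11 lower in TDonly than in ColGFP, and among the 30 tested receptors, 10 were higher and 12 lower. The higher ligands were Efna1, Efnb1, Efnb2, Sema3c, Sema3f, Sema3g, Sema4f, Sema6a, Sema6b, Sema6d and Sema7a. The lower ligands were Efna2, Efna5, Ntn3, Ntn4, Sema3d, Sema4b, Sema5a, Sema5b, Sema6c, Slit2 and Slit3. The higher receptors were Epha2, Epha4, Ephb4, Nrp1, Plxna1, Plxna4, Plxnb1, Robo3, Robo4 and Unc5b. The lower receptors were Epha1, Epha3, Ephb2, Ephb3, Ephb6, Nrp2, Plxna3, Plxnb2, Plxnc1, Robo1, Robo2 and Unc5c. In DBL against TDonly cells, 10 ligands were higher and 11 lower, and 10 receptors were higher and 8 lower. In DBL against ColGFP cells, 10 ligands were higher and 3 lower, and 8 receptors were higher and 6 lower. Called shares in TDonly against ColGFP, DBL against TDonly and DBL against ColGFP were 62.9, 60 and 37.1% for ligands. For receptors they were 73.3, 60 and 46.7%, beside 45.5, 29.9 and 14.5% of all tested genes. Whether ligands and receptors differ in these counts, or from all genes, was not tested. The lower call in TDonly against ColGFP did not pass for Sema4b without ColGFP replicate 1 (adjusted p = 0.0607) or with scaling to library totals (adjusted p = 0.114), in a range of 0.0119 to 0.114 over the alternatives, or for Sema5b without TDonly replicate 1 or 3 or ColGFP replicate 2 (adjusted p of 0.0544 to 0.0711).

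**Figure D1:**
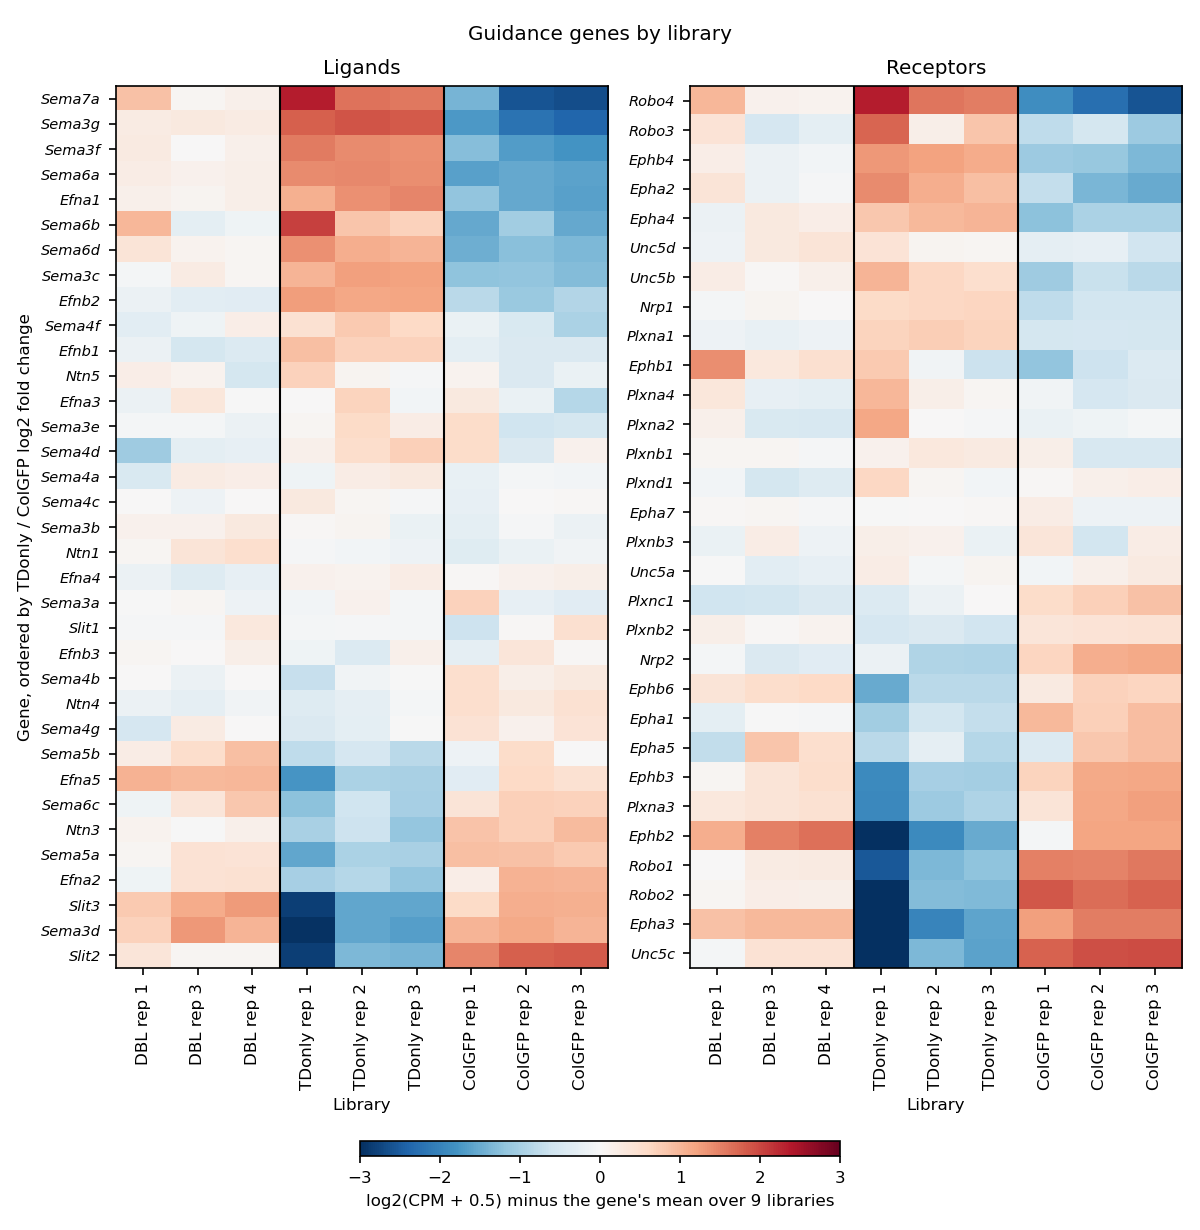
Level of each of the 65 tested guidance genes in each of the 9 libraries, as log2(CPM + 0.5) minus the gene's mean over the libraries, with ligands on the left, receptors on the right and genes ordered by their log2 fold change in TDonly over ColGFP. Genes at the top of both panels are red in TDonly and blue in ColGFP, genes at the bottom are the reverse, and TDonly replicate 1 is the deepest blue column at the bottom.

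Summed per kb of exon, so that genes of different length can be added, the guidance ligands made up 58.1, 60.2 and 60.8% of guidance transcript in the DBL libraries, 59.1, 60.6 and 60.7% in TDonly and 53.2, 53.3 and 53.0% in ColGFP. The means were 59.7 ± 1.41% in DBL, 60.1 ± 0.90% in TDonly and 53.2 ± 0.18% in ColGFP (SD, n = 3 each). Every DBL and TDonly library lay above every ColGFP library, and the DBL and TDonly ranges overlapped. The ligand sum was 853 to 908 CPM per kb in DBL, 1250 to 1312 CPM per kb in TDonly and 583 to 634 CPM per kb in ColGFP. The receptor sum was 581 to 614 CPM per kb in DBL, 810 to 909 CPM per kb in TDonly and 514 to 562 CPM per kb in ColGFP. Together the guidance genes took 0.774 to 0.790% of counts in DBL, 1.01 to 1.09% in TDonly and 0.641 to 0.707% in ColGFP.

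The most abundant ligand per kb was Slit3 in DBL, with 185 ± 31.0 CPM per kb, Sema3c in TDonly, with 277 ± 22.2 CPM per kb, and again Slit3 in ColGFP, with 168 ± 32.3 CPM per kb (SD, n = 3 each). The next in DBL were Sema3c (132 ± 13.6 CPM per kb) and Ntn1 (91.1 ± 14.3 CPM per kb). Efnb2 (153 ± 5.20 CPM per kb) and Sema7a (137 ± 44.3 CPM per kb) followed in TDonly, and their order is within the spread of the libraries. In ColGFP they were Ntn1 (62.2 ± 5.18 CPM per kb), Sema3c (53.2 ± 1.98 CPM per kb) and Slit2 (52.2 ± 7.12 CPM per kb), of which the last 2 do not differ beyond their spread. The most abundant receptor was Nrp1 in every population, with 233 ± 10.04 CPM per kb in DBL, 355 ± 8.89 CPM per kb in TDonly and 149.9 ± 12.5 CPM per kb in ColGFP. Nrp1 alone was 39.3% of receptor transcript per kb in DBL, 41.7% in TDonly and 27.6% in ColGFP.

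**Figure D2:**
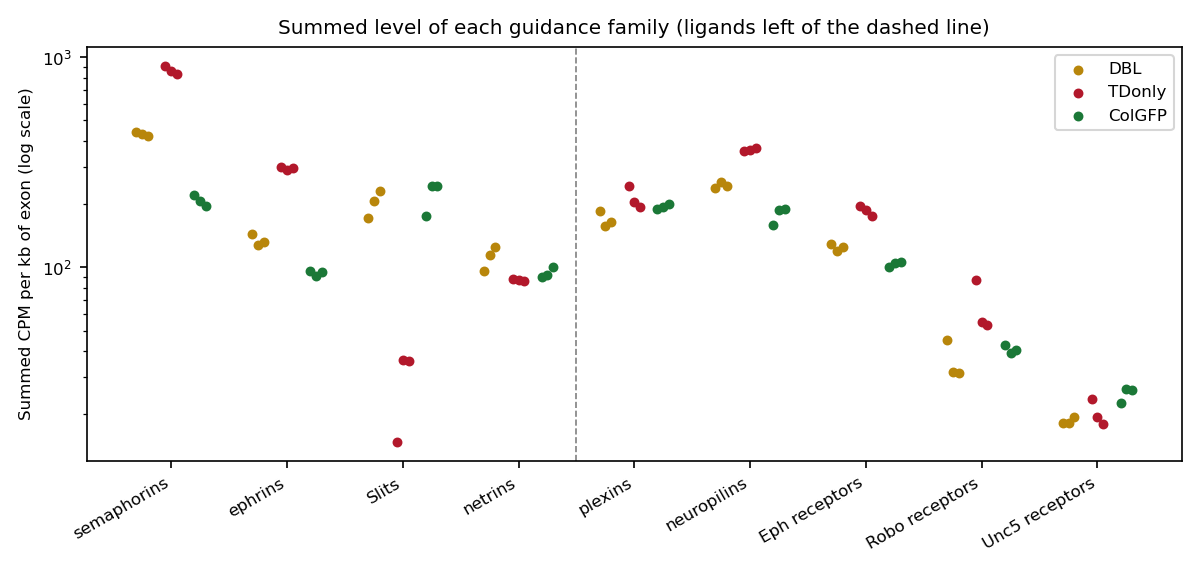
Summed level of each guidance family in each library, in CPM per kb of exon on a log scale, with ligand families left of the dashed line and receptor families right of it. Semaphorins reach 832 to 910 CPM per kb in TDonly, against 197 to 222 CPM per kb in ColGFP, while Slits have 14.7 to 36.2 CPM per kb in TDonly, against 175 to 243 CPM per kb in ColGFP.

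By family, the semaphorins and ephrins had their highest sums in TDonly, and the Slits and netrins their lowest. Semaphorins summed to 421 to 441 CPM per kb in DBL, 832 to 910 CPM per kb in TDonly and 197 to 222 CPM per kb in ColGFP. Ephrins summed to 128 to 144 CPM per kb in DBL, 290.3 to 299 CPM per kb in TDonly and 90.8 to 96.3 CPM per kb in ColGFP. Slits summed to 172 to 229.6 CPM per kb in DBL, 14.7 to 36.2 CPM per kb in TDonly and 175 to 243 CPM per kb in ColGFP. The DBL libraries thus lay between the others for semaphorins and ephrins, and overlapped ColGFP for Slits. Netrins spread less, with 96.3 to 125 CPM per kb in DBL, 85.6 to 88.3 CPM per kb in TDonly and 90.2 to 99.9 CPM per kb in ColGFP. Among the receptors, neuropilins summed to 238 to 255 CPM per kb in DBL, 358 to 371 CPM per kb in TDonly and 159 to 189.6 CPM per kb in ColGFP, and Eph receptors to 119 to 129 CPM per kb in DBL, 176 to 196 CPM per kb in TDonly and 100.9 to 106 CPM per kb in ColGFP. Every receptor family held genes that changed in opposite directions between TDonly and ColGFP. In TDonly, Nrp1 made up 355 of a mean neuropilin sum of 364 CPM per kb. Ephb4 made up 110 of a mean Eph receptor sum of 186 CPM per kb there, while 3 Eph receptors were higher and 5 lower than in ColGFP. Plexins summed to 157 to 185 CPM per kb in DBL, 193 to 244 CPM per kb in TDonly and 189 to 201 CPM per kb in ColGFP. Robo receptors summed to 31.3 to 45.1 CPM per kb in DBL, 52.9 to 87.0 CPM per kb in TDonly and 38.9 to 42.6 CPM per kb in ColGFP.

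Semaphorins repel or attract cells according to the receptor they meet, and their members were divided between TDonly and ColGFP cells. All 20 were tested, of which 8 were higher and 5 lower in TDonly than in ColGFP, 4 higher and 8 lower in DBL than in TDonly, and 7 higher and 0 lower in DBL than in ColGFP. Of the last, edgeR gave 1 lower gene (Sema5a) at an unadjusted p under 0.05, and DESeq2 and limma-voom each gave 1 after adjustment. By class, 3 of the 7 class 3 semaphorins and 3 of the 4 class 6 semaphorins were higher in TDonly than in ColGFP, and 1 of each class was lower. Of the 6 class 4 semaphorins, which are membrane proteins, 1 was higher and 1 lower, and both class 5 members were lower. The called shares of the 20 were 65, 60 and 35% in the 3 comparisons, beside 45.5, 29.9 and 14.5% of all tested genes. In TDonly against ColGFP the shares of classes 3, 4, 5 and 6 were 57.1, 33.3, 100 and 100%, class 4 being below that of all genes.

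Sema3c, a secreted semaphorin with a part in lung branching and outflow tract development, had 662, 808 and 709.8 CPM in DBL, 1379, 1604 and 1573 CPM in TDonly and 298, 299 and 279 CPM in ColGFP. The 3 populations did not overlap, and DBL lay between the others. It was higher in TDonly than in ColGFP (a log2 fold change of 2.38 ± 0.12, where ± gives the SE, adjusted p = 6.48e-07), lower in DBL than in TDonly (-1.06 ± 0.12, adjusted p = 0.000203) and higher in DBL than in ColGFP (1.32 ± 0.12, adjusted p = 9.57e-05). Sema3g, a class 3 semaphorin of endothelium, had 191, 196 and 189.9 CPM in DBL, 554, 597 and 571 CPM in TDonly and 48.2, 34.4 and 30.2 CPM in ColGFP. It had the same order with wider gaps, with log2 fold changes of 3.93 ± 0.17 in TDonly over ColGFP (adjusted p = 3.34e-07), -1.58 ± 0.16 in DBL over TDonly (adjusted p = 0.000127) and 2.36 ± 0.16 in DBL over ColGFP (adjusted p = 2.52e-05). Sema3f, which binds neuropilin-2, had 197, 164 and 182 CPM in DBL, 480.2, 439 and 422 CPM in TDonly and 66.9, 51.2 and 47.1 CPM in ColGFP. Again no library of one population reached the range of another, and the log2 fold change in TDonly over ColGFP was 3.02 ± 0.15 (adjusted p = 5.9e-07).

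The transmembrane class 6 semaphorins, which bind A-type plexins, moved likewise except for Sema6c. Sema6a had 212, 198 and 205 CPM in DBL, 483, 489 and 476 CPM in TDonly and 58.2, 62.2 and 59.6 CPM in ColGFP. Within each population the libraries lay close together. Its log2 fold change was 3.01 ± 0.09 in TDonly over ColGFP (adjusted p = 1.51e-07), -1.24 ± 0.08 in DBL over TDonly (adjusted p = 5.34e-05) and 1.77 ± 0.08 in DBL over ColGFP (adjusted p = 1.03e-05). Sema6d had 196, 162 and 158 CPM in DBL, 391, 319 and 305 CPM in TDonly and 54.4, 62.9 and 59.1 CPM in ColGFP, and its populations did not overlap either (log2 fold change 2.52 ± 0.14 in TDonly over ColGFP, adjusted p = 8.06e-07). Sema6c ran the other way, averaging 12.6 ± 4.14 CPM in DBL, 4.78 ± 1.18 CPM in TDonly and 14.7 ± 1.90 CPM in ColGFP (SD, n = 3 each), with a log2 fold change of -1.62 ± 0.27 in TDonly over ColGFP (adjusted p = 0.000799).

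Sema5a, a transmembrane semaphorin with thrombospondin repeats, was the abundant member highest in ColGFP. It had 138, 177 and 176 CPM in DBL, 44.4, 68.5 and 66.6 CPM in TDonly and 247, 242 and 228 CPM in ColGFP. The 3 populations did not overlap. It was lower in TDonly than in ColGFP (-1.999 ± 0.17 on the log2 scale, adjusted p = 1.42e-05) and higher in DBL than in TDonly (1.45 ± 0.17, adjusted p = 0.000271). In DBL over ColGFP the value was -0.55 ± 0.17 (adjusted p = 0.0577), which passed without TDonly replicate 1 (adjusted p = 0.00755) and ranged over the 18 alternatives between an adjusted p of 0.000338 and 0.174. Sema3d, a class 3 semaphorin, averaged 161 ± 33.3 CPM in DBL, 20.3 ± 9.27 CPM in TDonly and 166 ± 8.10 CPM in ColGFP (SD, n = 3 each). DBL and ColGFP overlapped for it, and it was lower in TDonly than in ColGFP by a log2 fold change of -3.03 ± 0.34 (adjusted p = 6.33e-05).

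Sema7a, a GPI-anchored semaphorin that binds Plxnc1 and integrins, is outside the genes that the naming rule gives and was chosen after its values were seen, for its size. It had 226, 127 and 134 CPM in DBL, 622, 374 and 364 CPM in TDonly and 45.9, 19.7 and 18.9 CPM in ColGFP. In each population the replicate 1 library was far above the other 2, and the populations still did not overlap. Its log2 fold change was 4.01 ± 0.43 in TDonly over ColGFP (adjusted p = 4.97e-05) and 2.52 ± 0.40 in DBL over ColGFP (adjusted p = 0.00262). In DBL over TDonly it was -1.48 ± 0.38 (adjusted p = 0.016), which did not hold when DBL replicate 3 (adjusted p = 0.0681) or DBL replicate 4 (adjusted p = 0.0725, the highest over the alternatives) was left out. Sema4c, a class 4 semaphorin, was abundant and changed in no comparison, with 94.6, 85.3 and 95.3 CPM in DBL, 115, 97.9 and 91.9 CPM in TDonly and 79.7, 94.4 and 96.1 CPM in ColGFP, all overlapping. With scaling to library totals Sema4c passed as higher in TDonly than in ColGFP (0.32, adjusted p = 0.0163, in a range up to 0.756 over the alternatives). Sema3a, Sema3b, Sema3e, Sema4a and Sema4g also passed in no comparison, with highest population means of 3.36 CPM (Sema4g) to 35.8 CPM (Sema3b). In TDonly over ColGFP, Sema3e passed as higher without ColGFP replicate 1 (0.86, adjusted p = 0.00236, in a range of 8.05e-06 to 0.703 over the alternatives) and Sema4g as lower without DBL replicate 1 (adjusted p = 0.0439). Sema3b passed as higher in DBL than in ColGFP with DESeq2 (adjusted p = 0.0364) and with library totals (0.0246, in a range up to 0.169). With library totals it also passed as higher in TDonly than in ColGFP (adjusted p = 0.0384, in a range up to 0.873).

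Sema4f, Sema4d and Sema6b each had a call that was lost when some single libraries were left out. Sema4f averaged 9.17 ± 1.80 CPM in DBL, 15.1 ± 1.86 CPM in TDonly and 6.67 ± 1.81 CPM in ColGFP (SD, n = 3 each), and its lower call in DBL against TDonly (-0.72 ± 0.22, adjusted p = 0.0349) was lost in 5 of the 9 fits that leave out 1 library (adjusted p up to 0.113). Sema4d averaged 9.06 ± 2.74 CPM in DBL, 18.2 ± 3.58 CPM in TDonly and 14.2 ± 4.79 CPM in ColGFP (SD, n = 3 each), and was lower in DBL than in TDonly (-1.01 ± 0.30, adjusted p = 0.0293), a call lost in 4 of the 9 fits (adjusted p up to 0.0938). Sema6b averaged 26.9 ± 14.4 CPM in DBL, 55.3 ± 31.2 CPM in TDonly and 8.15 ± 1.80 CPM in ColGFP (SD, n = 3 each), and in DBL and TDonly its replicate 1 library was more than the other 2 together. It was higher in TDonly than in ColGFP (2.77 ± 0.46, adjusted p = 0.000876) and higher in DBL than in ColGFP (1.73 ± 0.45, adjusted p = 0.0302), the last lost in 4 of the 9 fits (adjusted p up to 0.108). In DBL over TDonly it was -1.04 ± 0.43 (adjusted p = 0.0984, and 0.0185 without DBL replicate 1, in a range of 1.55e-05 to 0.369 over the alternatives).

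**Figure D3:**
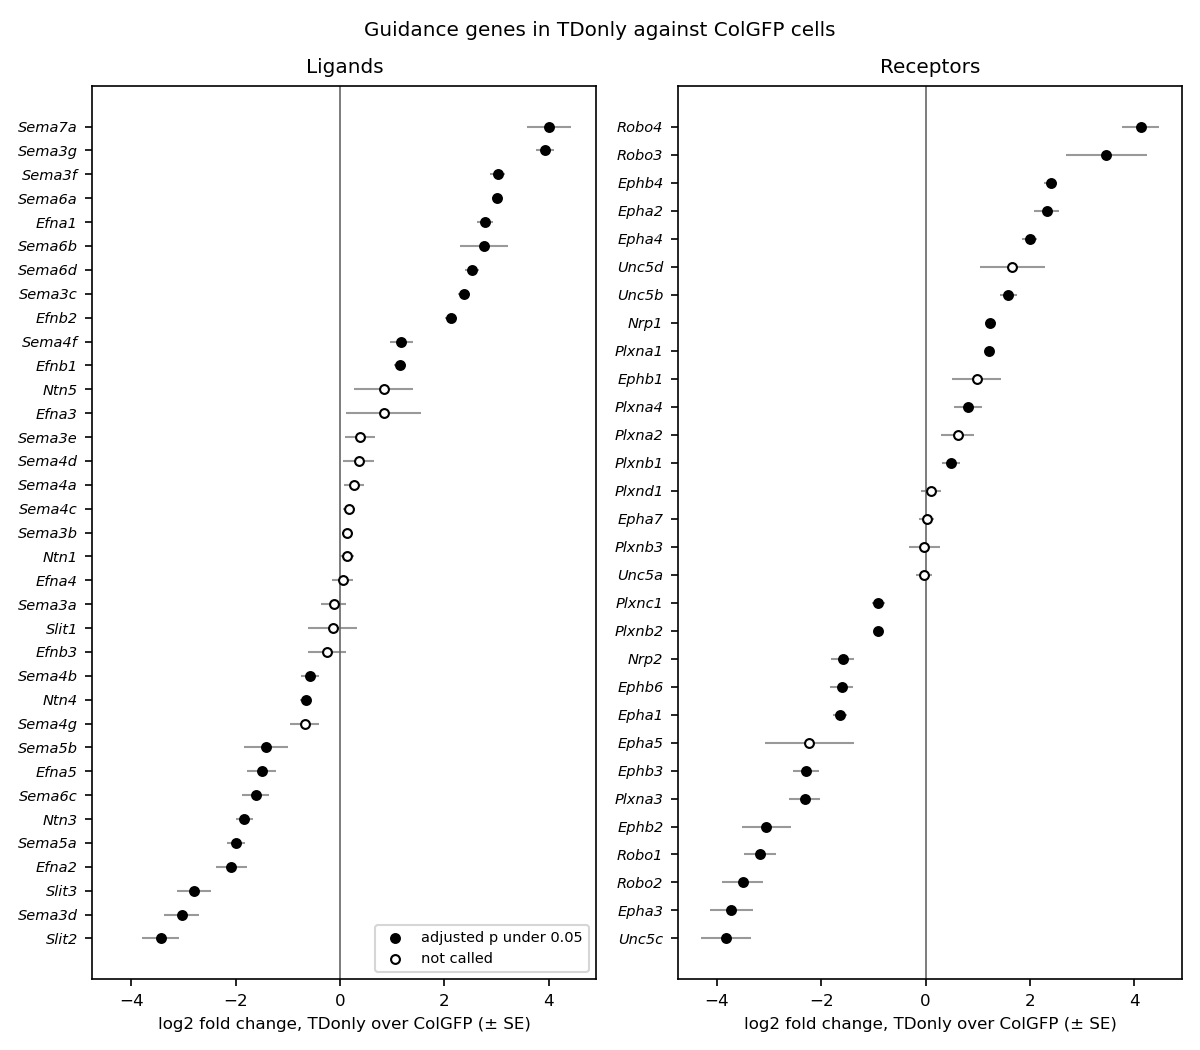
Log2 fold change in TDonly over ColGFP with its standard error for each tested ligand (left) and receptor (right), ordered from highest to lowest, where filled points passed an adjusted p of 0.05 in edgeR's quasi-likelihood test. Ligands run from Sema7a at 4.01 to Slit2 at -3.44 and receptors from Robo4 at 4.12 to Unc5c at -3.83.

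The neuropilins, the co-receptors of class 3 semaphorins that also bind VEGF, split between the populations. Nrp1 had 805, 877 and 837 CPM in DBL, 1242, 1278 and 1306 CPM in TDonly and 487, 565 and 566 CPM in ColGFP. The populations did not overlap, and its log2 fold change was 1.24 ± 0.11 in TDonly over ColGFP (adjusted p = 1.27e-05), -0.60 ± 0.10 in DBL over TDonly (adjusted p = 0.00193) and 0.64 ± 0.10 in DBL over ColGFP (adjusted p = 0.00311). Nrp2 had 147, 113 and 120.5 CPM in DBL, 135, 82.5 and 80.6 CPM in TDonly and 238, 326 and 335 CPM in ColGFP. Here ColGFP was the high population, and DBL and TDonly overlapped. Nrp2 was lower in TDonly than in ColGFP (-1.59 ± 0.22 on the log2 scale, adjusted p = 0.000287) and lower in DBL than in ColGFP (-1.24 ± 0.22, adjusted p = 0.00476). In DBL over TDonly the value was 0.35 ± 0.22 (adjusted p = 0.26). Without TDonly replicate 1, whose Nrp2 level was the highest of its group, it was 0.64 with adjusted p = 0.0211, and over the 18 alternatives the adjusted p ran from 5.77e-06 to 0.548.

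All 9 plexins, the main semaphorin receptors, were tested, of which 3 were higher and 3 lower in TDonly than in ColGFP, 2 higher and 2 lower in DBL than in TDonly, and 1 higher and 1 lower in DBL than in ColGFP. For plexins the called shares were 66.7, 44.4 and 22.2% in these comparisons, beside 45.5, 29.9 and 14.5% of all tested genes. Plxna1, a receptor for class 3 and class 6 semaphorins, had 369, 349.8 and 372 CPM in DBL, 651, 688 and 655 CPM in TDonly and 285, 288 and 287 CPM in ColGFP. No populations overlapped, and the log2 fold change was 1.21 ± 0.09 in TDonly over ColGFP (adjusted p = 4.25e-06) and -0.87 ± 0.09 in DBL over TDonly (adjusted p = 0.00012). The smaller step of 0.34 ± 0.08 in DBL over ColGFP (adjusted p = 0.0237) did not pass without DBL replicate 1 or 4 or without ColGFP replicate 2 or 3 (adjusted p between 0.0678 and 0.0871, in a range of 9.09e-06 to 0.118 over the alternatives). Of the length of Plxna1's exons, 10.7% overlaps Gm26811 on the opposite strand, and the strand setting of the counting is not given here.

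Plxna3 went the other way, with 19.6, 20.7 and 21.8 CPM in DBL, 3.74, 7.09 and 8.09 CPM in TDonly and 20.8, 35.8 and 37.6 CPM in ColGFP. TDonly was clear of both other populations, which overlapped each other. Its log2 fold change was -2.32 ± 0.30 in TDonly over ColGFP (adjusted p = 0.000171) and 1.72 ± 0.29 in DBL over TDonly (adjusted p = 0.00185). Plxnc1, the plexin that reads Sema7a, had 41.3, 42.7 and 46.2 CPM in DBL, 46.6, 55.3 and 63.3 CPM in TDonly and 91.9, 103 and 115 CPM in ColGFP. The DBL libraries lay below both other populations. It was lower in DBL than in ColGFP (-1.25 ± 0.13 on the log2 scale, adjusted p = 0.000222) and in TDonly than in ColGFP (-0.91 ± 0.13, adjusted p = 0.000316), whereas DBL over TDonly was -0.34 ± 0.13 (adjusted p = 0.0719, and 0.0205 without TDonly replicate 1, in a range of 0.00423 to 0.235 over the alternatives). Its ligand Sema7a was lowest in ColGFP, the population in which Plxnc1 was highest.

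Plxnb2, which was the second receptor by level per kb in DBL and ColGFP, averaged 350.3 ± 16.4 CPM in DBL, 228 ± 11.1 CPM in TDonly and 427 ± 10.7 CPM in ColGFP (SD, n = 3 each) and was lower in TDonly than in ColGFP by a log2 fold change of -0.91 ± 0.09 (adjusted p = 2.86e-05). In DBL over ColGFP Plxnb2 was -0.29 ± 0.09 (adjusted p = 0.0593). That value passed with DESeq2 (adjusted p = 0.00269) and limma-voom (adjusted p = 0.0362), in a range of 0.0017 to 0.231 over the alternatives. Plxna2 passed in no comparison although it was abundant, with 152, 98.7 and 98.2 CPM in DBL, 306, 137 and 133 CPM in TDonly and 119, 125 and 132 CPM in ColGFP. Its replicate 1 libraries of DBL and TDonly stood far above the others of their groups. Plxnd1, the plexin of endothelium that binds Sema3e, had 322, 237 and 259 CPM in DBL, 529.7, 355 and 325 CPM in TDonly and 351, 383 and 393 CPM in ColGFP. The DBL libraries were the lowest, and the TDonly and ColGFP libraries overlapped. Plxnd1 was lower in DBL than in TDonly at the edge of the threshold (log2 fold change -0.56 ± 0.19, adjusted p = 0.0494), a call lost in 7 of the 9 fits that leave out 1 library, with adjusted p up to 0.183. In DBL over ColGFP Plxnd1 was -0.46 ± 0.19 (adjusted p = 0.15), and the adjusted p was 0.0324 without TDonly replicate 1, in a range of 2.37e-06 to 0.361 over the alternatives. Plxna4 and Plxnb1 were higher in TDonly than in ColGFP, with log2 fold changes of 0.81 ± 0.26 and 0.48 ± 0.17. The Plxna4 call did not pass without TDonly replicate 1 or ColGFP replicate 2 or 3 (adjusted p up to 0.114), and the Plxnb1 call, whose populations overlap, was lost in 7 of those 9 fits (adjusted p up to 0.182). Plxnb1 passed as higher in DBL than in ColGFP without ColGFP replicate 1 (adjusted p = 0.00528, in a range of 0.000126 to 0.74 over the alternatives). Plxnb3, at 1.81 to 3.89 CPM, passed in no comparison.

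Of the 8 ephrins, 3 were higher and 2 lower in TDonly than in ColGFP, 2 higher and 3 lower in DBL than in TDonly, and 2 higher and 0 lower in DBL than in ColGFP, where edgeR gave 1 lower (Efna4) at an unadjusted p under 0.05 and neither DESeq2 nor limma-voom gave any. For ephrins the called shares were 62.5, 62.5 and 25% in these comparisons, beside 45.5, 29.9 and 14.5% of all tested genes. Efnb2, the arterial ephrin, had 282, 257 and 252 CPM in DBL, 762, 714 and 727 CPM in TDonly and 183, 148 and 174 CPM in ColGFP. DBL stood above ColGFP by much less than TDonly did, without overlap. The log2 fold change was 2.12 ± 0.11 in TDonly over ColGFP (adjusted p = 7.13e-07), -1.48 ± 0.11 in DBL over TDonly (adjusted p = 5.49e-05) and 0.65 ± 0.11 in DBL over ColGFP (adjusted p = 0.00333). Efnb1, another ligand of EphB receptors, had 139, 109 and 118 CPM in DBL, 294, 256 and 254 CPM in TDonly and 128, 117 and 117 CPM in ColGFP. For Efnb1 only TDonly stood apart, since DBL and ColGFP overlapped (log2 fold change 0.02 ± 0.11, adjusted p = 0.94), and it was lower in DBL than in TDonly by -1.13 ± 0.11 (adjusted p = 0.000134).

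The GPI-anchored A-type ephrins moved in different directions. Efna1, a main ligand of EphA2, had 44.0, 41.5 and 44.4 CPM in DBL, 82.3, 103 and 109.9 CPM in TDonly and 17.1, 13.1 and 12.4 CPM in ColGFP. It followed the order of Efnb2 without overlap, with a log2 fold change of 2.79 ± 0.15 in TDonly over ColGFP (adjusted p = 9.24e-07) and 1.60 ± 0.15 in DBL over ColGFP (adjusted p = 0.000115). Efna5 had 59.8, 57.3 and 58.7 CPM in DBL, 8.07, 14.7 and 14.5 CPM in TDonly and 22.6, 43.7 and 39.6 CPM in ColGFP. Its highest level was in DBL, whose libraries all exceeded those of ColGFP. It was higher in DBL than in TDonly (log2 fold change 2.24 ± 0.28, adjusted p = 0.000348) and lower in TDonly than in ColGFP (-1.50 ± 0.27, adjusted p = 0.00153). The step of 0.73 ± 0.26 in DBL over ColGFP did not pass (adjusted p = 0.106, and 0.0368 without TDonly replicate 1, in a range of 0.000583 to 0.205 over the alternatives). Efna2 was low, with 3.32, 5.14 and 5.25 CPM in DBL, 1.60, 1.80 and 1.36 CPM in TDonly and 4.29, 8.05 and 7.95 CPM in ColGFP. It was lower in TDonly than in ColGFP (-2.08 ± 0.30 on the log2 scale, adjusted p = 0.000371) and higher in DBL than in TDonly (1.52 ± 0.30, adjusted p = 0.00413). Efna3, Efna4 and Efnb3 stayed below 3 CPM in every library and passed in no comparison. With scaling to library totals Efna4 passed as lower in DBL than in TDonly (adjusted p = 0.0487, in a range up to 0.254 over the alternatives).

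Of the 14 Eph receptors, 11 were tested, of which 3 were higher and 5 lower in TDonly than in ColGFP, 5 higher and 3 lower in DBL than in TDonly, and 4 higher and 1 lower in DBL than in ColGFP. For Eph receptors the called shares were 72.7, 72.7 and 45.5% in these comparisons, beside 45.5, 29.9 and 14.5% of all tested genes. Ephb4, the receptor of Efnb2 on venous endothelium, had 237, 185 and 197 CPM in DBL, 515, 478 and 453 CPM in TDonly and 97.0, 95.0 and 81.7 CPM in ColGFP. It had the order of its ligand, with no overlap, and a log2 fold change of 2.40 ± 0.13 in TDonly over ColGFP (adjusted p = 7.35e-07), -1.22 ± 0.12 in DBL over TDonly (adjusted p = 0.000131) and 1.18 ± 0.12 in DBL over ColGFP (adjusted p = 0.000226). Epha2, an EphA receptor of epithelium and endothelium, had 93.8, 63.9 and 69.9 CPM in DBL, 192, 153 and 134 CPM in TDonly and 43.3, 27.6 and 24.995 CPM in ColGFP. Epha4, which binds both classes of ephrin, had 48.9, 67.7 and 63.7 CPM in DBL, 97.1, 109 and 113 CPM in TDonly and 23.3, 28.3 and 28.4 CPM in ColGFP. Both were without overlap and lowest in ColGFP. The log2 fold change in TDonly over ColGFP was 2.32 ± 0.24 for Epha2 (adjusted p = 4.34e-05) and 1.99 ± 0.14 for Epha4 (adjusted p = 4.43e-06).

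The other EphA and EphB receptors that changed were lowest in TDonly, apart from Ephb1. Epha3, an EphA receptor known from stromal cells, had 46.2, 49.2 and 49.2 CPM in DBL, 1.71, 5.89 and 7.96 CPM in TDonly and 59.3, 72.8 and 72.6 CPM in ColGFP. TDonly was far below both others, with log2 fold changes of -3.72 ± 0.41 in TDonly over ColGFP (adjusted p = 6.51e-05) and 3.22 ± 0.41 in DBL over TDonly (adjusted p = 0.000373). In DBL over ColGFP it was -0.50 ± 0.36 (adjusted p = 0.434), although the libraries did not overlap, and the adjusted p was 0.0224 without TDonly replicate 1 and 0.000542 to 0.626 over the alternatives. Epha1 had 41.9, 50.8 and 50.4 CPM in DBL, 24.7, 34.9 and 31.1 CPM in TDonly and 100.6, 84.7 and 98.2 CPM in ColGFP. It was lower in TDonly than in ColGFP (-1.64 ± 0.14 on the log2 scale, adjusted p = 1.44e-05), and 6.97% of its exon length overlaps Zyx on the opposite strand. It was also lower in DBL than in ColGFP (-0.99 ± 0.14, adjusted p = 0.00139) and higher in DBL than in TDonly (0.66 ± 0.14, adjusted p = 0.00622).

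Ephb3 had 60.2, 76.7 and 84.4 CPM in DBL, 15.04, 28.9 and 28.3 CPM in TDonly and 92.8, 129 and 132 CPM in ColGFP. Its populations did not overlap, with log2 fold changes of -2.29 ± 0.26 in TDonly over ColGFP (adjusted p = 7.09e-05) and 1.62 ± 0.25 in DBL over TDonly (adjusted p = 0.00112). In DBL over ColGFP it was -0.68 ± 0.25 (adjusted p = 0.106), and 0.0177 without TDonly replicate 1, with adjusted p of 3.18e-06 to 0.276 over the alternatives. Ephb2 and Ephb6 fall outside the naming rule's limit per family. Ephb2 averaged 56.6 ± 11.1 CPM in DBL, 4.63 ± 2.51 CPM in TDonly and 38.4 ± 16.1 CPM in ColGFP (SD, n = 3 each) and had the largest fold change of any guidance gene in DBL over TDonly (3.62 ± 0.47, adjusted p = 0.000439). Ephb6, a receptor without kinase activity, averaged 20.8 ± 1.69 CPM in DBL, 7.01 ± 1.95 CPM in TDonly and 21.4 ± 3.38 CPM in ColGFP (SD, n = 3 each) and was lower in TDonly than in ColGFP by -1.61 ± 0.21 (adjusted p = 0.000202). Ephb1 was higher in DBL than in ColGFP (1.71 ± 0.47, adjusted p = 0.037) at 7.56 ± 3.44 CPM in DBL and 2.32 ± 0.732 CPM in ColGFP (SD, n = 3 each), a call lost in 6 of the 9 fits that leave out 1 library, with adjusted p up to 0.129. Epha7, at 9.75 to 12.8 CPM, passed in no comparison. Neither did Epha5, at 0.132 to 1.66 CPM, except that without DBL replicate 1 it passed as higher in DBL than in TDonly (adjusted p = 0.0353) and as lower in TDonly than in ColGFP (adjusted p = 0.0258), the last also without ColGFP replicate 1 (adjusted p = 0.0233). Epha10, Epha6 and Epha8 did not exceed 0.358 CPM in any library.

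**Figure D4:**
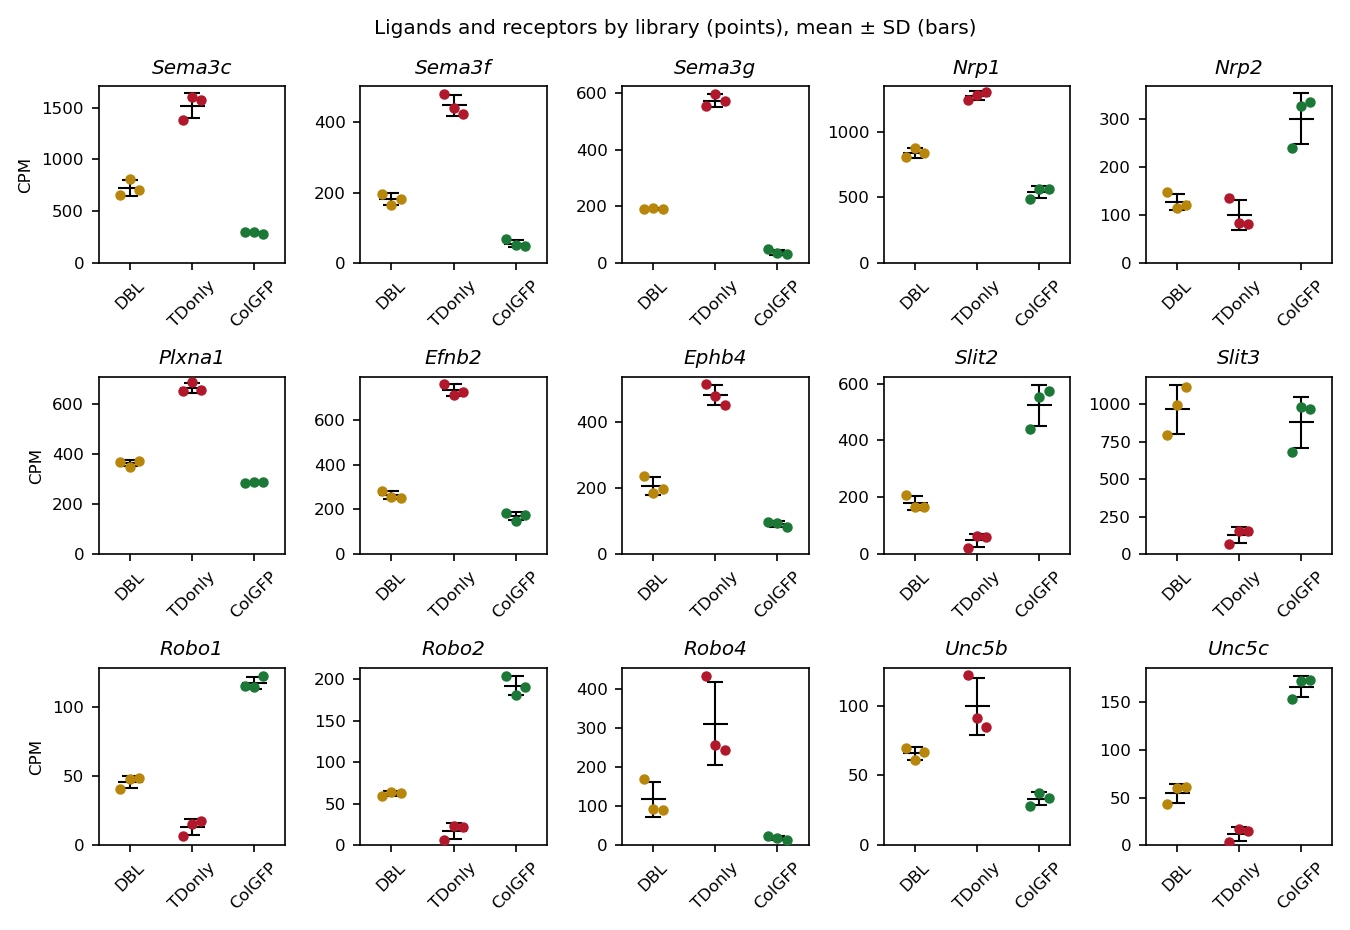
CPM of 15 ligands and receptors in each library (points), with mean ± SD (bars, n = 3 per population), DBL in gold, TDonly in red and ColGFP in green. Robo4 is high in TDonly, with 244 to 433 CPM, where Robo1 and Robo2 have 6.16 to 22.5 CPM, and the DBL and ColGFP points of Slit3 overlap.

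In the Slit and Robo family the vascular receptor Robo4 and the receptors Robo1 and Robo2 were at opposite ends. The RefSeq promoters of these genes (mouse build GRCm38.p6, 250 bases before the start and 50 after it, on the gene's strand) are shown because the members move in opposite directions, with AGGAAG or its reverse complement CTTCCT, the core letters searched for ETS factors of endothelium, in capitals. Robo4 is at chr9:37401722-37402021 on the plus strand with 1 match whose first base is 49 bases before the start, Robo1 at chr16:72662899-72663198 on the plus strand with 0 matches, and Robo2 at chr16:74411776-74412075 on the minus strand with 1 match whose first base is 77 bases before the start. The Robo1 window lies inside the gene, whose annotated start is at base 72308306, so it stands for an internal start. The Robo2 window covers that gene's annotated start at base 74411825.
Robo4: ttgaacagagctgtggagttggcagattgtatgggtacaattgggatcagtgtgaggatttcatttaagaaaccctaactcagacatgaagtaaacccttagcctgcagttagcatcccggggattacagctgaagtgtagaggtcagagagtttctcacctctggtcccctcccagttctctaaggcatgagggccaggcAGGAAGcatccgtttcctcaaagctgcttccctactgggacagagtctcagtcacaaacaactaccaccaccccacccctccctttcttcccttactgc
Robo1: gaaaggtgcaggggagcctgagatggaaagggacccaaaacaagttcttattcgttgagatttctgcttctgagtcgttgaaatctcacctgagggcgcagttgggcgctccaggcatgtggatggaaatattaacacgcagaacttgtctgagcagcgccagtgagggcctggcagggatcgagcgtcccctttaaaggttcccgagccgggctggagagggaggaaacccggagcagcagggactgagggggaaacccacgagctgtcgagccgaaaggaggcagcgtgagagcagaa
Robo2: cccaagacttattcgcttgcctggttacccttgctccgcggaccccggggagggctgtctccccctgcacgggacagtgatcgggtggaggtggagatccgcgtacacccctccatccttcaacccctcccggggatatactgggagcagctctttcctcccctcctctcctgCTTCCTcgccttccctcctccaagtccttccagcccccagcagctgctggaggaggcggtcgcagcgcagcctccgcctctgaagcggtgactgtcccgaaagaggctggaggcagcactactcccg
Robo2 has a further 2 promoter entries, with 0 matches.

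RefSeq promoters were matched for 60 of the 69 genes, 76 promoters in all. AGGAAG or CTTCCT stood in 8 of 20 promoters of members higher in TDonly than in ColGFP (40%), in 10 of 28 promoters of members lower in TDonly (35.7%), and in 35.4% of all 32851 promoters of the same length. The forkhead core TAAACA or its reverse complement TGTTTA stood in 0 of the 20, in 0 of the 28, in 2 of the 76 (Epha6 and Sema4d, 2.63%) and in 13.4% of all promoters. Both strands were searched, and the 2 motifs can share 1 letter where they adjoin. A match or its absence describes these windows alone.

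Robo4 had 168, 92.1 and 90.6 CPM in DBL, 433, 256 and 244 CPM in TDonly and 22.9, 17.1 and 13.5 CPM in ColGFP. The populations did not overlap, and the replicate 1 library was the highest of each. The log2 fold change was 4.12 ± 0.35 in TDonly over ColGFP (adjusted p = 1.31e-05), the highest of the 65 genes, with -1.41 ± 0.31 in DBL over TDonly (adjusted p = 0.00753) and 2.71 ± 0.33 in DBL over ColGFP (adjusted p = 0.000588). Robo3 lies 553 bases beyond the end of Robo4 on the opposite strand and had 0.801 to 3.39 CPM in TDonly. It was higher in TDonly than in ColGFP (3.47 ± 0.78, adjusted p = 0.00517). The annotated exons of the 2 genes do not overlap, so reads within them differ by position. Only transcripts that run past an annotated end into the other gene would need the strand setting, and such reads were not tested for. In DBL over TDonly Robo3 was -1.66 ± 0.65 (adjusted p = 0.0847, and 0.0458 without DBL replicate 1, in a range of 0.0247 to 0.318 over the alternatives).

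Robo1 had 40.6, 47.9 and 48.3 CPM in DBL, 6.43, 15.5 and 17.1 CPM in TDonly and 115, 115 and 122 CPM in ColGFP. The order of the populations was the reverse of Robo4, again without overlap, with log2 fold changes of -3.18 ± 0.30 in TDonly over ColGFP (adjusted p = 2.5e-05), 1.81 ± 0.29 in DBL over TDonly (adjusted p = 0.00124) and -1.36 ± 0.28 in DBL over ColGFP (adjusted p = 0.01). Robo2 had 58.7, 64.1 and 63.2 CPM in DBL, 6.16, 22.5 and 22.0 CPM in TDonly and 204, 181 and 191 CPM in ColGFP. It was ordered like Robo1, with -3.51 ± 0.40 in TDonly over ColGFP (adjusted p = 7.59e-05) and 1.88 ± 0.38 in DBL over TDonly (adjusted p = 0.00442). The value of -1.63 ± 0.37 in DBL over ColGFP (adjusted p = 0.0159) did not hold when DBL replicate 1, 3 or 4 was left out (adjusted p between 0.0552 and 0.06001, in a range of 8.93e-11 to 0.0775 over the alternatives).

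Among the Slits themselves, Slit2 and Slit3 were lowest in TDonly and differed from each other in DBL. Slit2 had 207, 165 and 166 CPM in DBL, 22.0, 61.9 and 60.7 CPM in TDonly and 442, 553 and 574 CPM in ColGFP. Slit3 had 792, 993 and 1113 CPM in DBL, 64.9, 156 and 156 CPM in TDonly and 683, 983 and 967 CPM in ColGFP. DBL cells thus overlapped ColGFP cells for Slit3 but not for Slit2. Slit2 was lower in TDonly than in ColGFP (-3.44 ± 0.35 on the log2 scale, adjusted p = 4.11e-05), higher in DBL than in TDonly (1.90 ± 0.33, adjusted p = 0.00216) and lower in DBL than in ColGFP (-1.54 ± 0.33, adjusted p = 0.0121), the last of which missed the threshold without DBL replicate 3 or 4 (adjusted p of 0.0528 and 0.0572, in a range of 3.74e-12 to 0.0794 over the alternatives). Slit3 was lower in TDonly than in ColGFP (-2.80 ± 0.33, adjusted p = 9.31e-05) and higher in DBL than in TDonly (2.94 ± 0.33, adjusted p = 0.000227), while DBL over ColGFP was 0.14 ± 0.31 (adjusted p = 0.825). Slit1 had at most 1.25 CPM in any library and passed in no comparison. TDonly replicate 1 was the lowest TDonly library for Slit2, Slit3, Robo1 and Robo2, as it was for Col1a1, with 373 CPM against 1493 and 1566 CPM in the other TDonly libraries, and whether the 2 go together was not tested.

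Of the 4 netrins, 0 were higher and 2 lower in TDonly than in ColGFP, 2 higher and 0 lower in DBL than in TDonly, and 1 higher and 2 lower in DBL than in ColGFP. Neither of the counts of 0 gained a gene at an unadjusted p under 0.05 in edgeR, in DESeq2 or in limma-voom. For netrins the called shares were 50, 50 and 75% in these comparisons, beside 45.5, 29.9 and 14.5% of all tested genes. Ntn3 had 12.2, 11.2 and 12.6 CPM in DBL, 5.53, 7.13 and 4.79 CPM in TDonly and 21.0, 18.8 and 22.4 CPM in ColGFP. Its populations did not overlap, with a log2 fold change of -1.83 ± 0.16 in TDonly over ColGFP (adjusted p = 1.59e-05), 1.04 ± 0.16 in DBL over TDonly (adjusted p = 0.00101) and -0.79 ± 0.16 in DBL over ColGFP (adjusted p = 0.00821). Its exons share 2.76% of their length with BC028777 on the opposite strand and 1.77% with Tbc1d24 on the same strand. Ntn4, a netrin of basement membranes, was also lower in TDonly than in ColGFP (-0.65 ± 0.11, adjusted p = 0.000743), at 66.2 ± 3.77 CPM in DBL, 63.6 ± 7.10 CPM in TDonly and 99.97 ± 7.75 CPM in ColGFP (SD, n = 3 each).

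Ntn1, the netrin best known from axon guidance, was the single guidance gene higher in DBL than in both other populations, and is named for that reason, after its values were seen. It had 459, 575 and 631 CPM in DBL, 432, 418 and 395 CPM in TDonly and 346, 383 and 409 CPM in ColGFP. Every DBL library lay above every other library, and TDonly and ColGFP overlapped. Its log2 fold change was 0.42 ± 0.13 in DBL over TDonly (adjusted p = 0.0361) and 0.55 ± 0.13 in DBL over ColGFP (adjusted p = 0.0202). Both calls are fragile. The first did not hold when DBL replicate 3 or 4, TDonly replicate 2 or TDonly replicate 3 was left out (adjusted p up to 0.117) and with scaling to library totals (adjusted p = 0.0649), and the second without DBL replicate 3 or 4 or ColGFP replicate 2 (adjusted p up to 0.0683). Over all 18 alternatives the adjusted p reached 0.171 for the first and 0.104 for the second. Among all tested genes, 135 or 0.868% were higher in DBL than in both, and 32 or 0.206% lower. No guidance gene was lower in DBL than in both by edgeR, DESeq2 or limma-voom after adjustment, and 3 were at an unadjusted p under 0.05 in edgeR.

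The Unc5 receptors, which carry the repulsive response to netrins, were also split. Unc5b, a receptor of endothelial tip cells, had 69.4, 60.8 and 66.9 CPM in DBL, 122, 91.3 and 84.5 CPM in TDonly and 28.2, 37.6 and 33.6 CPM in ColGFP. The populations did not overlap, with log2 fold changes of 1.58 ± 0.16 in TDonly over ColGFP (adjusted p = 3.33e-05) and 0.99 ± 0.16 in DBL over ColGFP (adjusted p = 0.00256). In DBL over TDonly it was -0.60 ± 0.15 (adjusted p = 0.0158), which did not hold when DBL replicate 3 (adjusted p = 0.0629) or DBL replicate 4 (adjusted p = 0.0677) was left out, in a range of 0.000897 to 0.079 over the alternatives. Unc5c had 43.0, 60.1 and 60.8 CPM in DBL, 3.39, 17.3 and 14.4 CPM in TDonly and 153, 172 and 173 CPM in ColGFP. TDonly replicate 1 was again the lowest library. Unc5c was lower in TDonly than in ColGFP (-3.83 ± 0.48 on the log2 scale, adjusted p = 0.000139), the lowest value of the 65 genes, and higher in DBL than in TDonly (2.22 ± 0.45, adjusted p = 0.00467). In DBL over ColGFP the value was -1.61 ± 0.43 (adjusted p = 0.0353), which passed in 9 of 18 alternatives and missed the threshold in 7 of the 9 fits that leave out 1 library (adjusted p of 0.0508 to 0.114). Unc5a, at 6.31 to 9.61 CPM, and Unc5d, at 0.0462 to 0.585 CPM, passed in no comparison, although Unc5d passed as higher in TDonly than in ColGFP without DBL replicate 1 (adjusted p = 0.0434).

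DBL cells, which carry both reporters, mostly had levels between those of the single-reporter cells. Of the 44 guidance genes that differed between TDonly and ColGFP, 39 had a DBL mean between the other means, against 85.1% of all genes that differed, so this share is near that of genes in general. On a CPM scale with the ColGFP mean at 0% and the TDonly mean at 100%, the 21 members higher in TDonly had DBL positions of 1.07 to 49.2%, with a median of 33.8%. The 10 endothelial markers had 27.3 to 34.9%, with a median of 32.1%. Of the 21 members, 10 lay within the range of the endothelial markers. Below it were 4, Efnb1 at 1.07%, Efnb2 at 16.8%, Plxna1 at 20.4% and Robo3 at 24.2%. Above it were 7, from Sema3c at 35.4% through Sema6b, Sema6d, Nrp1, Epha4 and Plxnb1 to Unc5b at 49.2%. The 23 members lower in TDonly had DBL positions from -102% to 124%, with a median of 42.4%, where 4 (Efna5, Ephb2, Sema5b and Slit3) lay beyond the ColGFP mean and 1 (Plxnc1) beyond the TDonly mean. The 8 fibroblast markers lay between -152% and 50.8%, with a median of -26.3%. Above the highest fibroblast marker were 10 of the 23 members, Ntn3 at 58.5%, Robo1 at 68.7%, Sema4b at 69.7%, Unc5c at 72.2%, Slit2 at 72.4%, Epha1 at 72.9%, Robo2 at 74.3%, Nrp2 at 86.4%, Ntn4 at 93.0% and Plxnc1 at 124%. The positions are descriptions without a test, since each rests on all 3 populations.

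**Figure D5:**
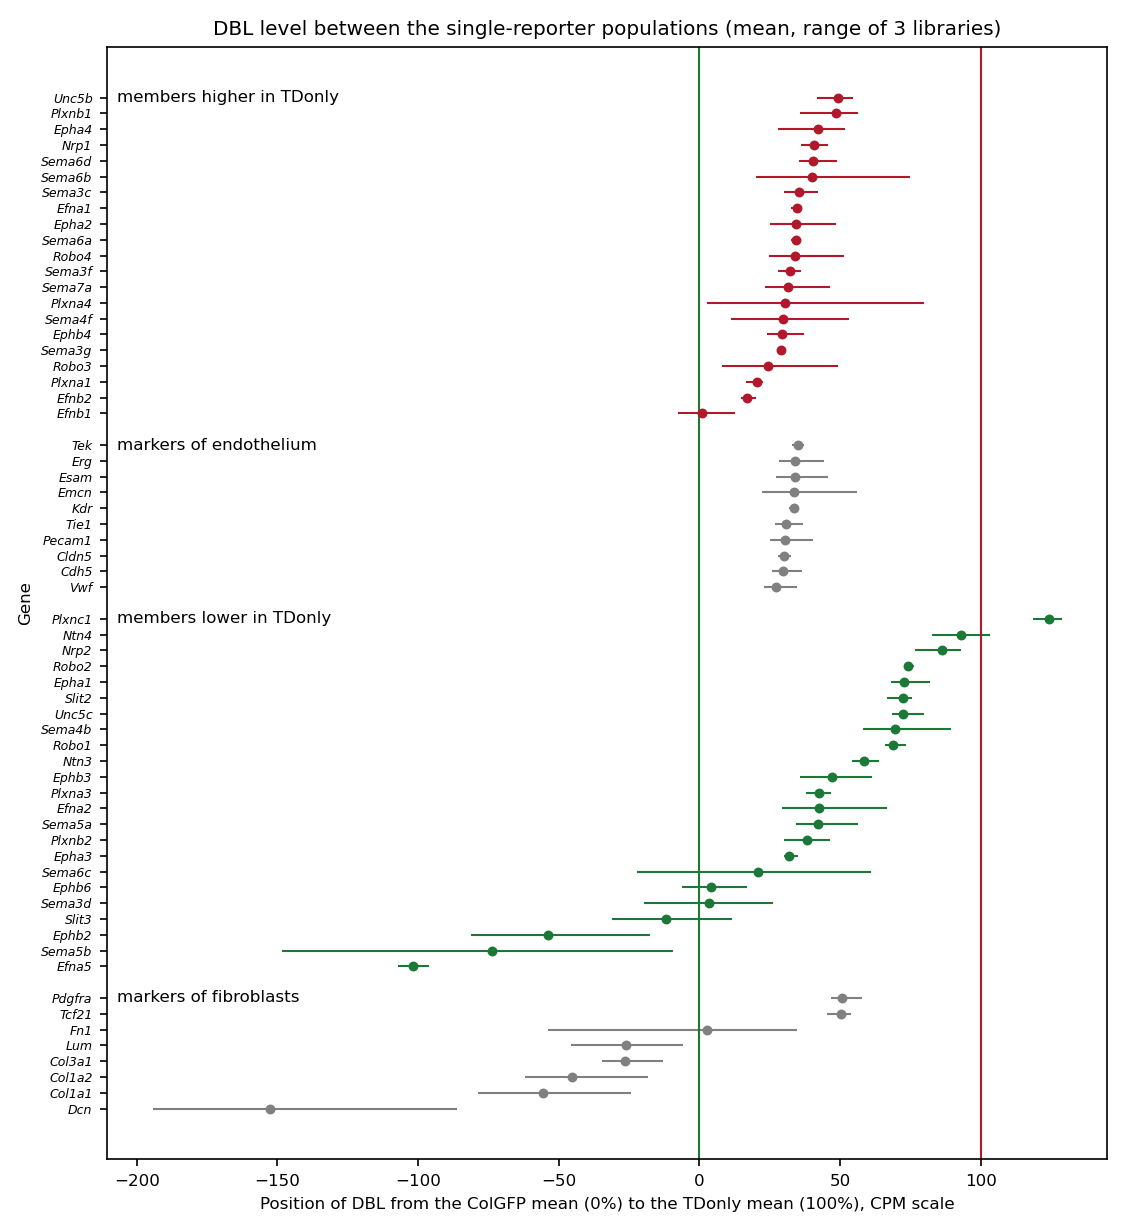
Position of the DBL mean (points) and of the lowest and highest DBL library (lines) between the ColGFP mean at 0% (green line) and the TDonly mean at 100% (red line), on the CPM scale, for members and cell type markers. Members higher in TDonly run from Efnb1 at 1.07% to Unc5b at 49.2%, with 10 of 21 inside the range of the endothelial markers, while members lower in TDonly spread from Efna5 at -102% to Plxnc1 at 124%.

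Other genes of the same pathways, taken from lists of co-receptors and intracellular partners, also held genes that changed in each direction. Their called shares stand beside those of all tested genes, which were 45.5% in TDonly against ColGFP, 29.9% in DBL against TDonly and 14.5% in DBL against ColGFP, and whether they differ from these was not tested. Of 33 further semaphorin receptors and effectors, 11 were higher and 13 lower in TDonly than in ColGFP, 10 higher and 9 lower in DBL than in TDonly, and 8 higher and 6 lower in DBL than in ColGFP (72.7, 57.6 and 42.4% called in these comparisons). Kdr, the VEGF receptor that pairs with Nrp1, averaged 599 ± 23.0 CPM in DBL, 1530 ± 30.1 CPM in TDonly and 131 ± 18.9 CPM in ColGFP (SD, n = 3 each), with a log2 fold change of 3.55 ± 0.13 in TDonly over ColGFP (adjusted p = 2.08e-07). Kdr is also one of the endothelial markers. Itga1, an integrin subunit, averaged 290.3 ± 47.2 CPM in DBL, 732 ± 82.0 CPM in TDonly and 99.9 ± 8.89 CPM in ColGFP (SD, n = 3 each). Mical3, an actin-oxidising enzyme of the MICAL family, ran the other way with 58.0 ± 7.03 CPM in DBL, 32.1 ± 0.84 CPM in TDonly and 113 ± 6.40 CPM in ColGFP (SD, n = 3 each).

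Of 27 effectors of Eph and ephrin signalling, 12 were higher and 7 lower in TDonly than in ColGFP, 7 higher and 8 lower in DBL than in TDonly, and 6 higher and 2 lower in DBL than in ColGFP (70.4, 55.6 and 29.6% called). Rgs3, a regulator of G protein signalling that binds ephrin-B, averaged 81.5 ± 6.06 CPM in DBL, 199 ± 8.61 CPM in TDonly and 36.7 ± 2.52 CPM in ColGFP (SD, n = 3 each), with a log2 fold change of 2.44 ± 0.10 in TDonly over ColGFP (adjusted p = 2.31e-07). Inpp5d, a phosphatase best known from blood cells, averaged 53.8 ± 10.99 CPM in DBL, 145 ± 20.6 CPM in TDonly and 17.6 ± 4.43 CPM in ColGFP (SD, n = 3 each), beside the leukocyte marker sums given above. Of 23 Slit and Robo effectors, 6 were higher and 8 lower in TDonly than in ColGFP, 9 higher and 6 lower in DBL than in TDonly, and 0 higher and 2 lower in DBL than in ColGFP, where edgeR gave 2 higher at an unadjusted p under 0.05, DESeq2 1 and limma-voom 0 after adjustment. Of these 23 genes 60.9%, 65.2% and 8.70% were called, the last below the share of all genes. Gpc1, a heparan sulphate proteoglycan that binds Slits, averaged 28.0 ± 2.996 CPM in DBL, 9.58 ± 4.46 CPM in TDonly and 80.7 ± 7.90 CPM in ColGFP (SD, n = 3 each), with -3.08 ± 0.32 in TDonly over ColGFP (adjusted p = 4.46e-05) and -1.53 ± 0.30 in DBL over ColGFP (adjusted p = 0.00802). Srgap3, an intracellular partner of Robo receptors, averaged 26.3 ± 4.84 CPM in DBL, 5.35 ± 1.63 CPM in TDonly and 24.7 ± 5.49 CPM in ColGFP (SD, n = 3 each), and was higher in DBL than in TDonly by 2.30 ± 0.26 (adjusted p = 0.000244).

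The list of further netrin receptors and effectors held 24 genes, of which 18 were tested. Among them 6 were higher and 8 lower in TDonly than in ColGFP, 7 higher and 5 lower in DBL than in TDonly, and 4 higher and 4 lower in DBL than in ColGFP (77.8, 66.7 and 44.4% called). Ablim3, an actin-binding LIM protein, averaged 75.2 ± 6.17 CPM in DBL, 36.5 ± 6.48 CPM in TDonly and 181 ± 8.37 CPM in ColGFP (SD, n = 3 each), with a log2 fold change of -2.31 ± 0.14 in TDonly over ColGFP (adjusted p = 1.54e-06). Ptk2, the focal adhesion kinase, had the reverse order, with 125 ± 7.63 CPM in DBL, 217 ± 12.1 CPM in TDonly and 78.2 ± 4.13 CPM in ColGFP (SD, n = 3 each).

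The calls kept their direction in the higher series of core numbers, but 3 values that were not calls changed sign there and passed. They were Plxnd1 and Sema3a in TDonly over ColGFP and Sema3e in DBL over ColGFP. Over the tested guidance genes and the 3 comparisons there were 110 calls. All 110 had the same sign and passed in a fit to the 6 libraries of the higher series alone, and 109 had the same sign in the replicate 1 libraries, the exception being Plxnb1 in TDonly over ColGFP. Both sets of libraries are part of the fit that gave the calls, so neither is an independent check. The higher-series fit also called more of all tested genes, with 28.9% against 14.5% in DBL against ColGFP. With 1 library per population, the replicate 1 values carry no test.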

How the data were processed

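RNA-seq was measured in 9 libraries of sorted lung cells, 3 per population. Groups and replicate numbers come from the sample titles, and columns were matched to samples by the core number in the labels. Ribosomal RNA was removed before sequencing, per the series' design text. The labels' extraction protocol describes flash-frozen lungs and a TruSeq kit and does not mention sorting. Reads were processed with cutadapt, TopHat and HTSeq on mm10, per the submitters' processing notes. Tool versions, annotation and strand setting are not given in the notes. The deposited table holds raw counts per gene symbol, which the authors did not normalise. It has 3 columns that match no sample, which were left out.

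Genes were kept by edgeR's filterByExpr (minimum count 10), which left 15550. Their counts in all 9 libraries were fitted in edgeR 4.0.16 (limma 3.58.1, R 4.3.3) by a quasi-likelihood model with 1 mean for each population, TMM factors, 6 residual and 3.42 prior degrees of freedom. Each of the 3 contrasts was tested two-sided, and p-values were adjusted by Benjamini-Hochberg over all tested genes, with a threshold of 0.05. The SE of a log2 fold change was derived from that test, as its absolute value over the square root of the F statistic. It was not estimated separately. CPM use TMM factors. Levels per kb divide CPM by the union of exons in GENCODE M21 (basic set). Depth limits the precision of genes of low count, and the spread between libraries was used in place of counting intervals. The fit was checked on simulated counts.

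Members named with values in every library were those called in a contrast with an absolute log2 fold change of at least 1, a mean of at least 5 CPM in the highest population and no overlap between the groups, at most 6 per family by adjusted p, and uncalled members with a mean of at least 50 CPM. Other members given with values of their own were chosen after their values were seen. From each pathway list at most 3 genes per contrast were named. The guidance genes, the 4 pathway lists, the 10 marker lists and the tests were chosen with earlier results of these data known. The alternatives were DESeq2 1.42.0, limma-voom, DESeq2 size factors, library totals, no filter, only the 2 populations compared, the replicate number as a block, the series of core numbers as a covariate or its higher series alone, and leaving out each library.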

Additional observations from a re-analysis of the deposited data

How the results depend on the processing

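Of the 110 calls of a guidance gene in a comparison, 92 passed in all 18 alternatives and 93 in every fit that left out 1 library. The 39 further values that passed in at least 1 alternative did not pass in the reported fit. Leaving out 1 library gave 14 to 19 higher and 6 to 13 lower guidance genes in DBL against ColGFP, 19 to 22 higher and 14 to 19 lower in DBL against TDonly, and 19 to 22 higher and 22 to 25 lower in TDonly against ColGFP. The called shares of all genes in these fits were 9.31 to 17.5%, 22.1 to 32.4% and 36.1 to 46.6%. With the 6 libraries of the higher series alone, 18 guidance genes were lower in DBL than in ColGFP, against 9 in all libraries. Over all tested genes the lower count also rose, from 1006 to 1969, and the called share from 14.5 to 28.9%. In the same fit, 3 values that did not pass in all libraries changed sign and passed: Plxnd1 at -0.22 and Sema3a at 0.31 in TDonly over ColGFP, and Sema3e at 0.47 in DBL over ColGFP. The cause was not tested. The ligand share without scaling to exon length was 58.0% in DBL, 57.5% in TDonly and 50.6% in ColGFP. Without Sema3c and Nrp1 it was 67.5% in DBL, 67.0% in TDonly and 58.9% in ColGFP. The order of ColGFP below the others was the same in both.

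Deviations from the group means correlated at 0.0156 to 0.527 between same-numbered libraries, not over 0.1 in every pair. Not every library correlated best with its own number, so the replicate numbers were not taken to pair the samples. By core number, DBL replicate 3 stands next to ColGFP replicate 2 and TDonly replicate 2. DBL replicate 4 stands next to ColGFP replicate 3 and TDonly replicate 3. The deviations correlated at 0.0143 to 0.340 between these neighbours and at 0.0156 to 0.289 between the other pairs of the higher series. Whether these neighbours pair the samples was not tested, and no block of them was fitted. Libraries of the same series of core numbers correlated at 0.0143 to 0.527 and libraries of different series at -0.424 to -0.0225. With the series as a covariate, 20 guidance genes were higher and 13 lower in DBL than in ColGFP, 21 and 24 in DBL than in TDonly, and 21 and 24 in TDonly than in ColGFP. A block by replicate number joins DBL replicate 3 to the other replicate 3 libraries and leaves DBL replicate 4 alone. With the replicate number as a block, 16 guidance genes were higher and 6 lower in DBL than in ColGFP, 19 and 16 in DBL than in TDonly, and 20 and 23 in TDonly than in ColGFP. Under this block 33.8, 53.8 and 66.2% of the guidance genes and 10.2, 23.1 and 41.7% of all genes were called. Ntn3 in DBL over ColGFP was then -0.79 (adjusted p = 0.0625). Depth limits what can be said of members below about 1 CPM.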

Other observations

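Lymphatic endothelial markers (5 of 6 in the table) summed to 228 to 281 CPM in DBL, 625 to 636 CPM in TDonly and 61.6 to 113 CPM in ColGFP. All 5 were higher in TDonly than in ColGFP, while in DBL against ColGFP 2 were higher and 3 did not pass. Smooth muscle markers summed to 525 to 773 CPM in DBL, 154 to 190.1 CPM in TDonly and 819 to 2061 CPM in ColGFP, where replicate 1 was the highest. Pericyte markers summed to 683 to 951 CPM in DBL, 82.3 to 173 CPM in TDonly and 649 to 939 CPM in ColGFP, so that DBL and ColGFP overlapped. The 6 pericyte markers did not move together, since 2 were higher and 4 lower in TDonly than in ColGFP. Mesothelial markers were highest in DBL, with 549 to 632 CPM, against 84.1 to 285 CPM in TDonly and 119 to 174 CPM in ColGFP. Neuronal markers, read here because guidance genes are best known from neurons, summed to 33.1 to 48.9 CPM in DBL, 76.4 to 111 CPM in TDonly and 10.7 to 11.7 CPM in ColGFP. Of these 6 markers, 3 were higher in TDonly than in ColGFP and 3 did not pass, with log2 fold changes from -0.90 to 3.74. Schwann cell markers summed to 51.4 to 62.2 CPM in DBL, 52.4 to 80.4 CPM in TDonly and 33.1 to 58.7 CPM in ColGFP. Of the 6 that were tested, 3 were higher and 1 lower in TDonly than in ColGFP. In that comparison 45.5% of all tested genes passed. The part of these cell types in the levels of the guidance genes was not tested.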
